A study of Homo sapiens with 6 samples.

Results

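Fibroblast growth factors (FGFs) are ligands that bind receptor tyrosine kinases together with heparan sulfate, and the activated receptors signal through RAS, RAF and MEK to the kinase ERK. Active ERK induces its own brakes, the Sprouty, SPRED and DUSP proteins, and the ETS factors ETV1, ETV4 and ETV5. In the gastrulating mouse embryo, FGF signalling at the primitive streak is needed for nascent mesoderm to leave the epithelium and for expression of Snail, the protein that human SNAI1 encodes. Human embryonic stem cells in turn depend on FGF2 for self-renewal.

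To examine how this pathway is expressed when SNAI1 is deleted, 40 genes were taken by symbol: 22 FGF ligands, 6 receptors and co-receptors (FGFR1 to FGFR4, FGFRL1 and KLB) and 12 feedback genes and ERK targets. They were found among 37803 symbols listed once in both deposited tables. The cells were H1, a human embryonic stem cell line, at day 2 of hematopoietic differentiation in Custom mTeSR1 medium. WT cells (n = 2) were compared with cells after SNAI1 deletion, labelled here SNAI1_KO_1 (n = 2) and SNAI1_KO_2 (n = 2). Per the labels all groups received activin A (40 ng/ml) with BMP4 (50 ng/ml), while the methods of the study give the reverse doses. The study describes a pair of SNAI1 knockout lines with frameshift mutations, and the labels do not say whether the leading number of a title stands for a line. The methods of the study speak in general terms of independent experiments, but neither they nor the labels say whether the 2 libraries of a group came from separate cultures, so the p-values measure only the spread between these libraries, which may be technical.

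Values are FPKM, fragments scaled by transcript length and by mapped fragments, and each of 2 tables holds 1 library per group. The tables list 38100 and 58324 gene rows, so statements of overlap across tables also carry any difference in quantification. Values are given below for WT, SNAI1_KO_1 and SNAI1_KO_2 in that order, the first table before the second. Differences are on the log2(FPKM + 1) scale, knockout minus WT, from limma with the table as a block, which understates the change of low genes. P-values were adjusted by the Benjamini-Hochberg method over the 13909 genes whose mean FPKM reached 1 or more, and an adjusted p under 0.05 counts as passing. FPKM carries no read totals, so depth is unknown. In bulk RNA, fewer cells of a type and less RNA per cell cannot be told apart.

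SNAI1 itself had an FPKM of 37.1, 51.6 and 68.6 in the first table, then 36.4, 47.8 and 55.0 in the second. The mRNA was higher than WT in all 4 knockout libraries (log2 difference 0.58 ± 0.074 (SE), adjusted p = 0.00461 by limma). Without WT of the first table the adjusted p was 0.0522. A frameshift can leave a transcript in place, so this level does not check the labels, and directions are given for the libraries under their labels.

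The cells carried transcripts of the streak, and other cell type markers moved with the groups. Of 8 epithelial markers all 8 were higher in both knockout groups against WT, and their summed FPKM was 803 to 896 in WT and 2511 to 2814 in the knockout libraries. Of 6 pluripotency markers 4 were higher and 0 lower (895 to 1015 against 1229 to 1506). Of 11 streak and early mesoderm markers 7 were lower and 2 higher (1644 to 1712 against 1114 to 1202), and of 6 definitive endoderm markers 3 were lower and 1 higher (2909 to 3395 against 1324 to 1975). CER1 made up most of the endoderm sum, and the other 5 markers summed to 133, 195 and 178, then 359, 429 and 347. T, the defining streak factor brachyury, was among those that rose (17.8, 130 and 143, then 38.7, 218 and 251). The other streak marker that rose, MSGN1, had a WT mean of 0.536 and passed the filter only through the knockout libraries. Of 10 amnion or trophoblast markers 3 were tested, of which TFAP2A and GABRP were higher (1.82 and 1.16) and GATA3 lower (-0.87), and the list summed to 28.7 to 44.6 in WT and 29.4 to 51.5 in the knockout libraries. GABRP had a WT mean of 0.0950 and likewise passed the filter only through the knockout libraries. The 6 neuroectoderm markers (2 tested, 1 higher) summed to 156 to 181 and 168.9 to 180.3, and the 8 hematoendothelial markers (1 tested, 0 called) to 5.02 to 5.59 and 5.28 to 7.44. NES and OTX2 made up most of the first sum and RUNX1 most of the second. Among untested markers, PAX6 (1.29, 0.113 and 0.152, then 2.38, 0.184 and 0.0242) and CD34 (1.15, 0.201 and 0.0423, then 1.11, 0.140 and 0.113) were lower in every knockout library. SPN was higher in each (0.350, 0.399 and 0.613, then 0.225, 0.414 and 0.444). PTPRC was at 0 in all 6 libraries and SOX1 at 0 in 5 of them. The part of any of these shifts in the FGF results was not tested.

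Of the 40 genes, 26 were tested and 14 (13 ligands and KLB) lay under the filter. In both knockout groups against WT, 9 members were higher, 5 were lower and 12 did not pass. Of all genes tested, 31.3% passed, 15.8% higher and 15.4% lower. The median difference was 0.053 over the tested members and -0.050 over all genes, and the median absolute difference was 0.49 and 0.21. By class, of 9 ligands tested 4 were higher and 1 lower, of 5 receptors 0 were higher and 3 lower, and of 12 feedback genes 5 were higher and 1 lower. FGF4 and SPRED3 had a mean FPKM under 1 in WT and passed the filter only through the knockout libraries. Without them, 3 ligands were higher and 1 lower, and 4 feedback genes were higher and 1 lower. The number of members called was 9 of 40 with no filter and 4 of 26 without the table block. In these fits 7.07% and 7.66% of all genes were called. With no filter FGFR1, FGFRL1, SPRY1, SPRED3, DUSP6, ETV4 and IL17RD lost the call, and FGF1 and FGF21 gained it. Among receptors and feedback genes, only FGFR2 and SPRY2 were then called. Without the block only FGF4, FGF17, FGF19 and FGFR2 stayed called, so the counts by class depend on these settings. Fewer members, and fewer of all genes, were also called when any 1 library was left out.

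**Figure D1:**
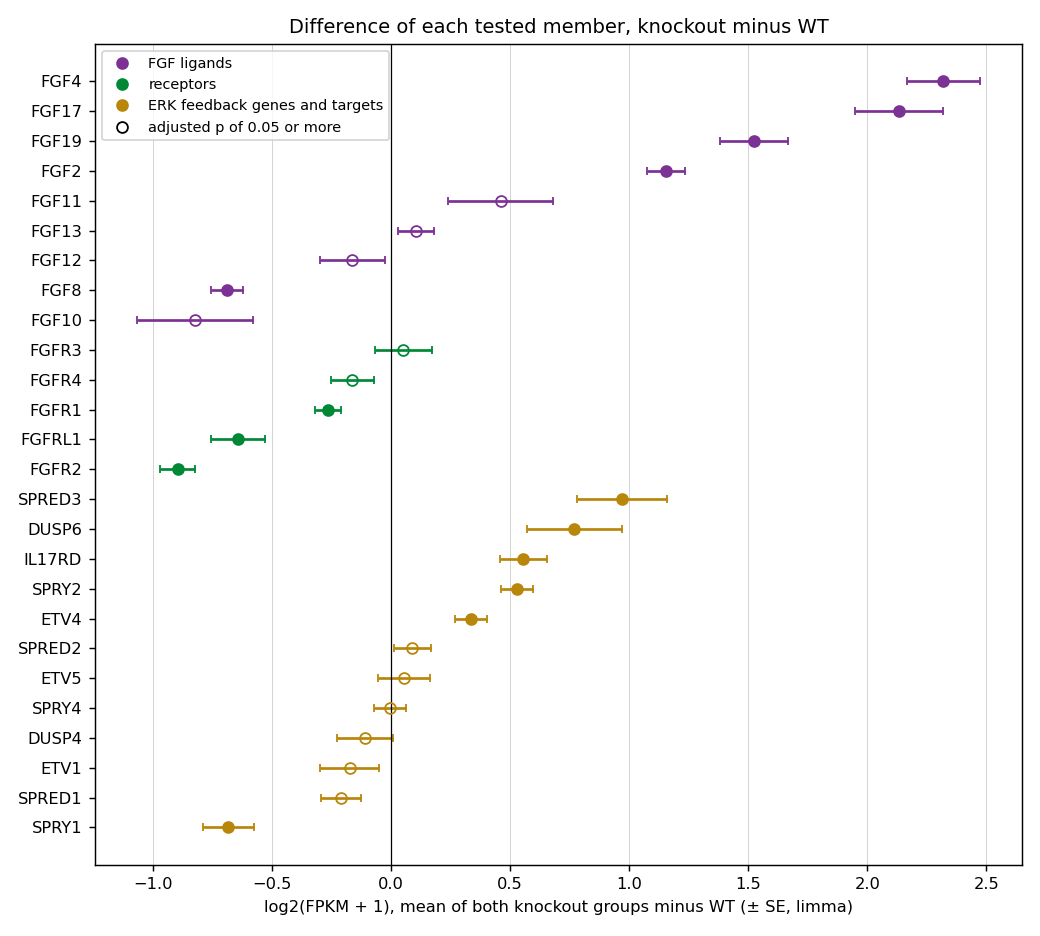
Difference of each of the 26 tested members on the log2(FPKM + 1) scale (x axis, mean of both knockout groups minus WT, bars are the limma SE), by class and sorted within it. Filled points passed the adjusted threshold. FGF4, FGF17, FGF19 and FGF2 lie farthest to the right, and no receptor that passed lies above 0.

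The FGF8 subfamily, which includes ligands active in the streak, held the most abundant ligand in every library, FGF17. FGF17 FPKM was 28.4, 163 and 164 in the first table, then 54.4, 225 and 159 in the second. Each knockout library was above both WT libraries, and the mean of the knockout libraries was 5.76 times WT in the first table and 3.53 times in the second. The log2 difference was 2.13 ± 0.185 (SE, adjusted p = 0.00132).

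FGF8, the close relative that is required in the mouse streak, moved the other way. Its FPKM was 26.3, 17.9 and 14.6 in the first table, then 22.6, 14.7 and 12.2 in the second, with no overlap between knockout and WT libraries. The log2 difference was -0.69 ± 0.066 (SE, adjusted p = 0.00178). Within a library, FGF17 mRNA was 1.08 and 2.41 times as abundant as FGF8 in WT, per unit of length, and 9.14 to 15.3 times in the knockout libraries. FGF18, the remaining member of the subfamily, was at an FPKM of 0.294 to 0.862 in all libraries and was not tested.

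FGF4, a ligand of pluripotent cells and of the early streak, had low values in WT and passed the filter only through the knockout libraries. It stood at 0.918, 6.65 and 7.92 in the first table, then 0.865, 10.5 and 9.08 in the second. All 4 knockout libraries were thus several-fold above WT, at 7.94 and 11.3 times the WT FPKM of their table on average. The log2 difference was 2.32 ± 0.155 (SE, adjusted p = 0.000652) with a pseudocount of 1, 3.11 with 0.1 and 0.76 with 10.

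FGF19, an endocrine FGF that signals mainly through FGFR4 with a Klotho co-receptor, also rose. Its FPKM was 1.08, 3.90 and 4.54 in the first table, then 1.34, 6.92 and 6.57 in the second, with no overlap (log2 difference 1.53 ± 0.144 (SE), adjusted p = 0.00171). With a pseudocount of 10 the difference was 0.46. KLB, the co-receptor beta-Klotho, did not exceed 0.206 in any library.

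FGF2, the ligand used to maintain human embryonic stem cells, was 9.34, 21.0 and 21.0 in the first table, then 17.6, 39.1 and 46.0 in the second. It was about as far above WT in each table, at 2.25 and 2.42 times, although the WT libraries themselves differed between tables. The log2 difference was 1.16 ± 0.080 (SE, adjusted p = 0.000726). FGF2 shares exon sequence with NUDT6 on the opposite strand, and whether counting used strand is not given in the sources used here. NUDT6 had an FPKM of 1.42 to 3.14 and did not pass (adjusted p = 0.448).

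FGF10, which signals through the epithelial form of FGFR2, was 10.1, 2.92 and 4.31 in the first table, then 6.68, 5.19 and 4.79 in the second. All 4 knockout libraries were below both WT libraries, but the size differed between tables and the gene did not pass (log2 difference -0.82 ± 0.243 (SE), adjusted p = 0.0542). It passed without the WT library of the second table (-1.29, adjusted p = 0.0403) or its SNAI1_KO_1 library (-1.04, adjusted p = 0.0359).

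The FGF homologous factors FGF11 to FGF14 are not secreted and act on sodium channels inside the cell. FGF13 was the most abundant of them, at 19.3, 20.8 and 21.7 in the first table, then 19.7, 19.0 and 23.0 in the second, with overlapping groups and a log2 difference of 0.10 ± 0.074 (SE, adjusted p = 0.333). FGF12 and FGF11 had differences of -0.16 (adjusted p = 0.412) and 0.46 (adjusted p = 0.171). Without the SNAI1_KO_2 library of the first table, FGF11 passed at 0.68 (adjusted p = 0.0409). FGF14 was under the filter. The antisense transcript FGF13-AS1, which overlaps exons of FGF13, was higher (1.08, 3.42 and 4.31, then 0.317, 2.75 and 3.54, log2 difference 1.43, adjusted p = 0.00241). Its mean in WT lay under the filter, which it passed only through the knockout libraries. It lies on the opposite strand to FGF13, and whether counting used strand is not given.

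**Figure D2:**
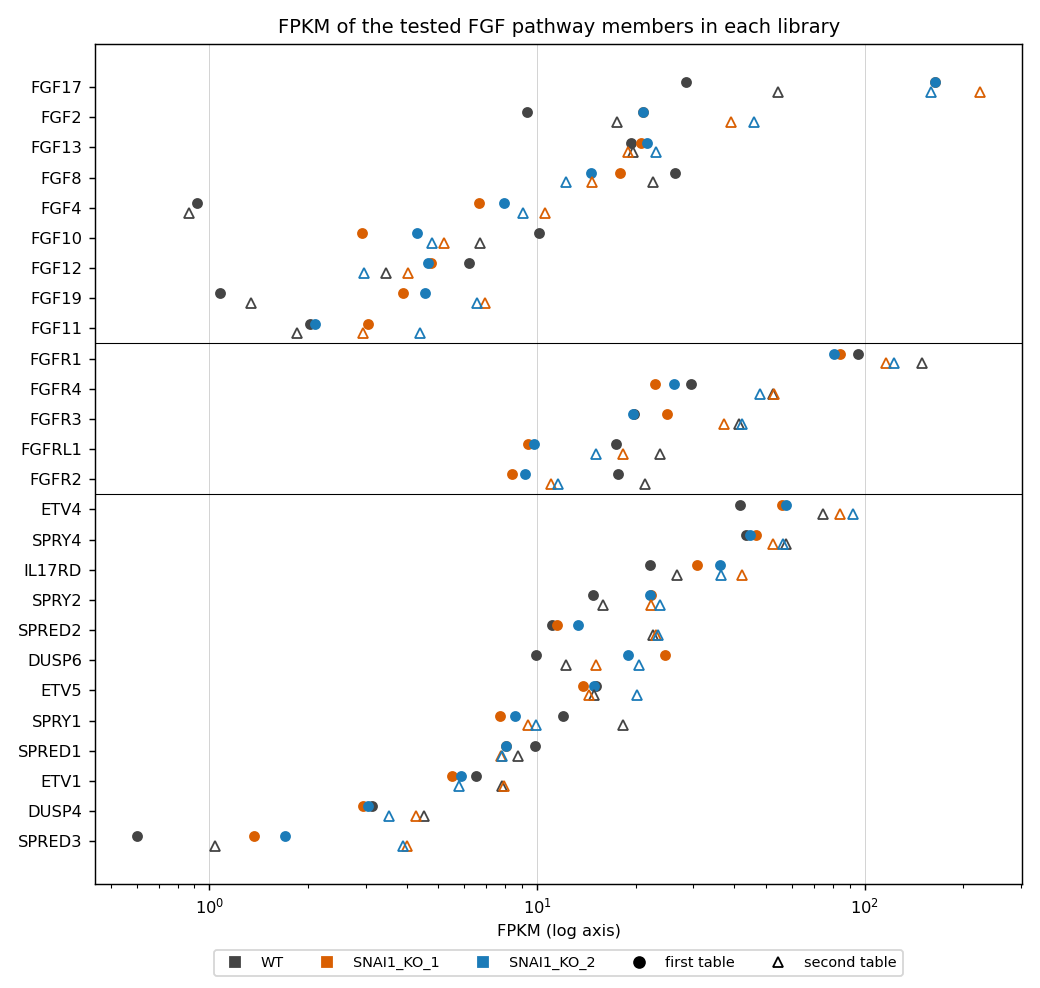
FPKM (log axis) of the 26 tested members in each of the 6 libraries, coloured by group, with filled circles for the first table and open triangles for the second. FGF17 and FGF4 knockout libraries lie to the right of both WT libraries, and FGFR1, FGFR3 and FGFR4 differ more between tables than between groups.

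The other 13 ligands had low values throughout. FGF1 was 0.0545, 0.833 and 1.17, then 0.171, 0.868 and 1.65, and FGF21, an endocrine FGF, was listed at 0 in both WT libraries and between 0.910 and 1.36 in the knockout libraries. Of the 14 members under the filter, 5 (FGF1, FGF3, FGF20, FGF21 and FGF23) were higher than WT in all 4 within-table differences, against 10.9% of symbols under the filter with a value above 0. FGF16 and FGF22 were lower in all 4, against 11.5%. Both backgrounds include symbols listed at 0 in WT and in a knockout library of the same table, which cannot differ in all 4. The comparison was not tested. In the first table FGF23 counted as higher at 0.0159 in SNAI1_KO_1 against 0.0153 in WT. In the fit with no filter FGF1 and FGF21 passed (log2 differences 0.92 and 1.02, adjusted p = 0.0384 and 0.0349), and the other 12 did not.

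The ligand pool was next compared as a whole. FPKM summed over the 18 ligands that act outside the cell was 78.6, 220 and 220 in the first table, then 107, 306 and 243 in the second. FGF17 supplied 36.2%, 74.4% and 74.5% of it in the first table, then 50.9%, 73.6% and 65.3% in the second. FGF8 ranked second behind FGF17 in both WT libraries, with 33.5% and 21.1%. In the knockout libraries FGF2 ranked second, with 9.53% to 18.9%, and FGF8 followed, with 4.81% to 8.14%. These shares restate the values of single genes and were not tested.

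**Figure D3:**
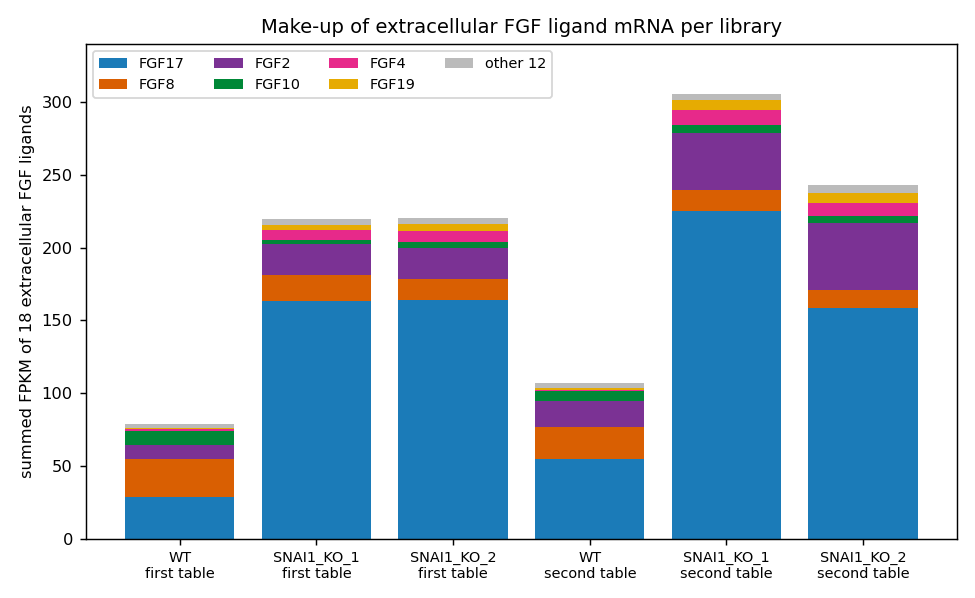
Summed FPKM (y axis) of 18 extracellular FGF ligands in each library, by gene. The bars of the 4 knockout libraries reach 220 to 306 and those of WT 78.6 and 107, and FGF17 forms the largest block in every bar.

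No receptor was higher. FGFR1, the main receptor of the mouse streak, was the most abundant, with 53.4% to 60.0% of the FPKM of the 4 kinase receptors in every library. It was 95.3, 84.1 and 80.7 in the first table, then 149, 116 and 123 in the second, so that knockout libraries were below the WT library of their table while the groups overlapped across tables. The log2 difference was small, -0.27 ± 0.056 (SE, adjusted p = 0.0206). With no filter the adjusted p was 0.0833, and without the table block 0.715. The call was lost when any library except SNAI1_KO_1 of the first table was left out (adjusted p = 0.0558 to 0.153).

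FGFR2, whose splice forms bind different FGFs, was lower. It was 17.6, 8.37 and 9.20 in the first table, then 21.4, 11.04 and 11.6 in the second. The knockout libraries averaged 0.499 and 0.529 times the WT FPKM of their table, with no overlap. The log2 difference was -0.90 ± 0.074 (SE, adjusted p = 0.00113). Its share of the 4 kinase receptors was 10.9% and 8.09% in WT and 5.09% to 6.78% in the knockout libraries. Which splice form of FGFR2 was expressed was not analysed here, since values are per gene symbol.

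FGFRL1, a receptor without a kinase domain, was 17.4, 9.36 and 9.79 in the first table, then 23.7, 18.2 and 15.1 in the second. It was lower within each table (log2 difference -0.64 ± 0.113 (SE), adjusted p = 0.0118), although the SNAI1_KO_1 library of the second table lay above WT of the first. With no filter the adjusted p was 0.0777, and without the table block 0.347. The adjusted p was 0.103 without WT of the first table and 0.0542 without SNAI1_KO_2 of the second.

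FGFR3 and FGFR4 did not pass. FGFR3 was 19.8, 24.9 and 19.7 in the first table, then 41.2, 37.3 and 42.2 in the second (log2 difference 0.05 ± 0.119 (SE), adjusted p = 0.770). FGFR4 was 29.5, 22.9 and 26.2 in the first table, then 52.6, 52.7 and 47.9 in the second (log2 difference -0.16 ± 0.091 (SE), adjusted p = 0.231). For both genes the tables differed more than the groups. The sum of all 6 receptors was 180, 150 and 146 in the first table, then 288, 235 and 240 in the second.

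Feedback genes split between higher, lower and not passing. SPRY2, a Sprouty brake on receptor signalling, was 14.8, 22.3 and 22.1 in the first table, then 15.9, 22.3 and 23.7 in the second. The 4 knockout libraries lay close together and above both WT libraries (log2 difference 0.53 ± 0.066 (SE), adjusted p = 0.00415). SPRY1, of the same family, was 11.97, 7.70 and 8.55 in the first table, then 18.3, 9.40 and 9.89 in the second. It was lower with no overlap (log2 difference -0.68 ± 0.108 (SE), adjusted p = 0.00845), and the adjusted p was 0.0704 without the WT library of the second table. For SPRY1 the adjusted p was 0.0595 with no filter and 0.135 without the table block. SPRY4, the most abundant Sprouty gene, was 43.3, 46.6 and 44.7, then 57.6, 52.5 and 56.1, and the groups overlapped. Its log2 difference was -0.01 ± 0.067 (SE, adjusted p = 0.958), and the sign turned under quantile normalization and median-ratio scaling.

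IL17RD, a membrane protein also known as SEF that restrains FGF receptor signalling, was 22.2, 30.8 and 36.2 in the first table, then 26.6, 42.3 and 36.4 in the second. All knockout libraries were above both WT libraries (log2 difference 0.56 ± 0.099 (SE), adjusted p = 0.0123). With no filter the adjusted p was 0.0818, and without the table block 0.142. The adjusted p was 0.103 and 0.0968 without the WT library of either table.

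DUSP6, the phosphatase that removes the activating phosphates from ERK, was 9.91, 24.6 and 18.9 in the first table, then 12.3, 15.1 and 20.5 in the second. The groups did not overlap, but the SNAI1_KO_1 libraries differed between tables, and the gene passed in both groups together (log2 difference 0.77 ± 0.200 (SE), adjusted p = 0.0386) and in neither alone (adjusted p = 0.0704 and 0.0621). It did not pass without WT of the first table (0.49, adjusted p = 0.273) or of the second (adjusted p = 0.0801), or without the SNAI1_KO_2 library of the first (adjusted p = 0.0859) or of the second (adjusted p = 0.125). For DUSP6 the adjusted p was 0.177 with no filter and 0.118 without the table block. DUSP4, a nuclear ERK phosphatase, had a log2 difference of -0.11 (adjusted p = 0.523).

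ETV4, an ETS factor induced by FGF signalling, was the most abundant of this class in WT on average, at 41.6, 56.0 and 57.6 in the first table, then 74.7, 84.1 and 92.0 in the second. It was higher within each table while the groups overlapped across them (log2 difference 0.34 ± 0.067 (SE), adjusted p = 0.0172). With no filter the adjusted p was 0.0827, and without the table block 0.691. The adjusted p was 0.0580 to 0.113 when the WT, SNAI1_KO_1 or SNAI1_KO_2 library of the first table or the SNAI1_KO_2 library of the second was left out. ETV4 shares exon sequence with DHX8 on the opposite strand, which had an FPKM of 14.5 to 24.2 and a log2 difference of -0.33 (adjusted p = 0.0502).

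The related factors did not pass. ETV5 was 15.1, 13.8 and 14.9 in the first table, then 15.0, 14.4 and 20.1 in the second, so that only the SNAI1_KO_2 library of the second table stood above the rest (log2 difference 0.05 ± 0.109 (SE), adjusted p = 0.741). ETV1 had a log2 difference of -0.17 (adjusted p = 0.337).

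SPRED genes, which hold back RAF activation by RAS, differed among themselves. SPRED3 was 0.601, 1.36 and 1.70 in the first table, then 1.04, 4.02 and 3.90 in the second, with no overlap (log2 difference 0.97 ± 0.189 (SE), adjusted p = 0.0161). It passed the filter only through the knockout libraries. With no filter its adjusted p was 0.0984, and without the table block 0.249. Its adjusted p was 0.0510 to 0.103 without the SNAI1_KO_2 library of the first table or any library of the second. SPRED2 was 11.1, 11.5 and 13.3, then 22.6, 23.1 and 23.4, and did not pass (0.09 ± 0.077 (SE), adjusted p = 0.425). SPRED1, at 7.74 to 9.83 in all libraries, was below both WT libraries in all 4 knockout libraries without passing (-0.21 ± 0.084 (SE), adjusted p = 0.118).

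Each knockout group was then set against WT on its own. SNAI1_KO_1 had 13 members called of 26, 8 higher and 5 lower, where 23.9% of all genes passed. SNAI1_KO_2 likewise had 13, 8 higher and 5 lower, where 25.5% of all genes passed. These comparisons share the WT libraries. For SNAI1_KO_1 and SNAI1_KO_2 in turn, the log2 differences were 2.26 and 2.01 for FGF17, 2.31 and 2.33 for FGF4, 1.10 and 1.21 for FGF2, -0.56 and -0.82 for FGF8, and -0.94 and -0.85 for FGFR2. Leaving out 1 library gave 5 to 9 members for SNAI1_KO_1, with 5 to 7 when it was a WT or SNAI1_KO_1 library of either table. It gave 6 to 14 members for SNAI1_KO_2, with 6 to 8 when it was WT of the first table or a SNAI1_KO_2 library of either.

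Between the knockout groups, limma called 0 of 26 members and 0 of 13909 genes (0%), with a median SE of 0.12 on the log2 scale. At an unadjusted p under 0.05 there were 521 genes, among them 1 member, FGF8, which was 0.26 lower in SNAI1_KO_2 than in SNAI1_KO_1 (unadjusted p = 0.0164 and adjusted p = 0.9996 by limma's fit across all genes). Differences larger than this SE also went uncalled, so the absence of calls does not show that the knockout groups were alike.

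The sequence CAGGTG, with its reverse complement CACCTG, is the E-box that Snail family zinc fingers bind, and its presence was recorded in the promoter windows of the members as a description. RefSeq windows on GRCh38.p14 run from 250 bases before a transcription start to 50 after it, and both strands were read. Of 35116 windows of all genes 20.6% held the letters, and of 56 windows of 29 members 9 (16.1%), in 7 members. The windows of a gene can overlap. The other 11 members had no entry and were not searched, among them FGF4, FGF8, FGF17, FGF19, FGFR1 and ETV4, which passed the expression test. Among members with a window the letters were found in 1 of 5 that were higher (IL17RD), 1 of 3 that were lower (FGFR2), 2 of 10 that did not pass (FGF12 and FGFR4) and 3 of 11 that were not tested (FGF1, FGF21 and FGF22). The stretches around the match are shown for IL17RD, which rose, for FGFR4, which did not pass, and for FGF1, which was not tested. Those of FGFR2, which fell, and of FGF12, FGF21 and FGF22 are not shown. The stretches run 5′ to 3′ on the strand of the gene with the E-box in capitals.
IL17RD, chr3:57170387-57170466, minus strand: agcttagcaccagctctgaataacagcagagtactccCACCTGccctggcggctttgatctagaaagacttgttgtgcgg
FGFR4, chr5:177086665-177086737, plus strand: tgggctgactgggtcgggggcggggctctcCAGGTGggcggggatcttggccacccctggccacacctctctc
FGF1, chr5:142698085-142698164, minus strand: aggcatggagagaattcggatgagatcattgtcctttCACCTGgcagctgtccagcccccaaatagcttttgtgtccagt
The E-box of IL17RD begins 112 bases before the start and that of FGFR4 220 bases before it. That of FGF1 begins 106 or 57 bases before it, depending on which of its starts is used. None of these stretches overlaps an annotated exon in GENCODE release 29. The tables were made on hg19, and no expression value was read by these coordinates.

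The other genes of the pathway were examined in lists of named genes. Of 30 co-receptors and heparan sulfate cofactors, 23 were tested, 8 were higher and 6 lower, and the median difference was 0.021 against -0.050 over all genes. The share called was 60.9%, against 31.3% of all genes. The largest rises were FGFBP1 and FGFBP3, carriers that release FGFs from the matrix (1.63 and 0.96, adjusted p = 0.00142 and 0.00119), and SDC2, a heparan sulfate proteoglycan (1.51, adjusted p = 0.000404). FGFBP1 was 0.154 and 0.0341 in WT and passed the filter only through the knockout libraries, at 2.18 to 2.59. SDC2 stood at 38.6, 106 and 105, then 42.3, 116 and 145. SULF2, which trims sulfate from heparan sulfate, HS6ST1, which adds it, and the proteoglycan SDC1 showed the largest falls (-0.88, -0.78 and -0.64, adjusted p = 0.000683, 0.000646 and 0.00856).

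Next came the adapters and the cascade from RAS to ERK. Of 30 genes 29 were tested, 4 were higher and 5 lower, and 20 did not pass, with a median difference of -0.079. The share called, 31.0%, was near the 31.3% of all genes. The largest rises were RPS6KA2, an ERK-activated kinase (1.68, adjusted p = 0.00172), the adapter GAB2 (0.66, adjusted p = 0.00392) and MAP2K1, which encodes MEK1 (0.36, adjusted p = 0.00584). The largest falls were the FGF receptor adapter FRS3 (-0.60, adjusted p = 0.0148), the ETS factor ELK3 (-0.53, adjusted p = 0.00878) and the phospholipase PLCG1 (-0.33, adjusted p = 0.00835).

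Other brakes on RAS and ERK numbered 21, of which 19 were tested, 2 were higher and 3 lower (median difference -0.062). The share called was 26.3%, against 31.3% of all genes. RASAL2, a RAS GTPase-activating protein, and the phosphatase DUSP1 were higher (0.80 and 0.49, adjusted p = 0.00491 and 0.0157). The ERK phosphatase DUSP7, the ubiquitin ligase CBLB and the adapter LZTR1 were lower (-0.52, -0.46 and -0.34, adjusted p = 0.00722, 0.0416 and 0.00965).

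Among 21 transcripts that ERK induces in many cell types, 17 were tested, 9 were higher, 3 lower and 5 did not pass, with a median difference of 0.28. The share called was 70.6%, against 31.3% of all genes. Of the 9 higher genes, FOS, PHLDA2, VGF and LIF had a mean FPKM under 1 in WT and passed the filter only through the knockout libraries, which raises the count and the median. Without these 4, 5 were higher and 3 lower, with a median of 0.21. FOSL1, an AP-1 factor, was 1.09, 5.67 and 5.18 in the first table, then 2.97, 12.1 and 18.05 in the second (1.81, adjusted p = 0.00176). PHLDA2 and the neurosecretory protein VGF followed (1.23 and 0.91, adjusted p = 0.00521 and 0.0434), with WT means of 0.566 and 0.340. The largest falls were EPHA4, JUNB and MYC (-0.79, -0.68 and -0.35, adjusted p = 0.00263, 0.00915 and 0.00812). Over the 4 lists, 40 of 88 genes tested were called, and 8 without the table block, where 31.3% and 7.66% of all genes were called. Fewer genes of the lists, and fewer of all genes, were also called when any 1 library was left out.

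**Figure D4:**
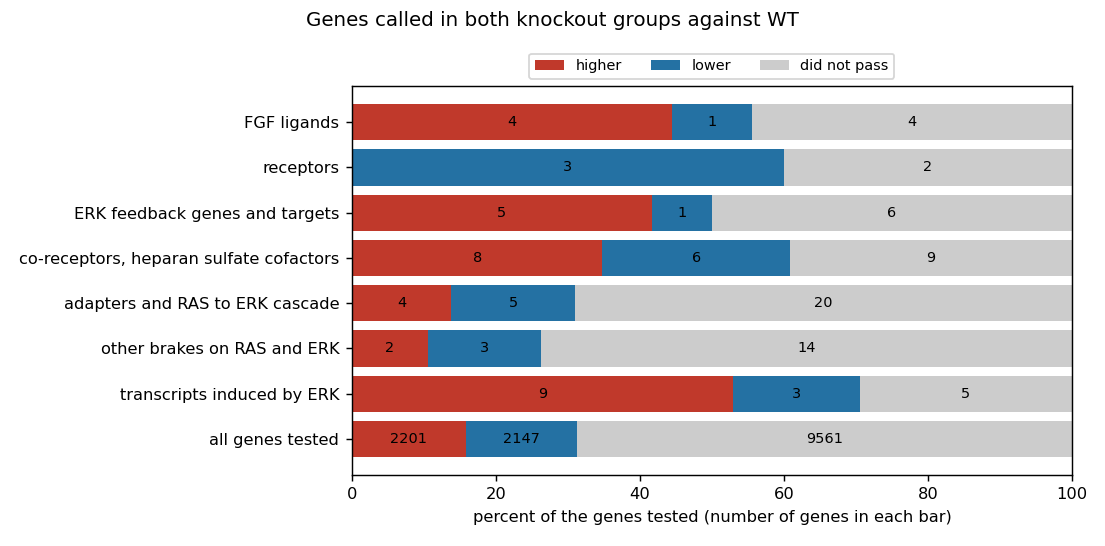
Percent of the tested genes of each list that were higher, lower or did not pass in both knockout groups against WT (x axis), with the number of genes written in each bar. The bottom bar, over all 13909 genes, gives the background, with 15.8% higher and 15.4% lower.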

How the data were processed

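RNA-seq of 6 libraries (3 groups, n = 2 each) was used. The authors deposited FPKM values per gene symbol in 2 tables, and a heading line of the second names the unit. The submitters' processing notes list BWA, Bowtie and RSEM without versions or roles, and genome build hg19. Libraries were made with a TruSeq kit from 2 ug of total RNA. The tables were treated as normalized separately, so the model compared libraries within a table, while statements of overlap also cross tables. Why the tables differ in their number of gene rows is not given in the sources used here. Repeated symbols (94 and 340) were left out, and 0 per-sample columns matched no sample. The model on log2(FPKM + 1), with pseudocount 1, had a mean per group and a table term (limma 3.58.1, R 4.3.3, lmFit, contrasts.fit and eBayes with trend, 2 residual and 3.34 prior degrees of freedom), and was tested on simulated data. P-values were two-sided.

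Pairing comes from the shared table, and differences between tables correlated at r = 0.616, 0.666 and 0.676 between groups over genes, which are not independent. Members and lists were chosen with earlier results of these data known. Members that passed or had a mean FPKM of at least 10 are given in every library. Of each further list the 3 largest rises and falls past the threshold are named. Of the co-receptor list 28 symbols, and of the other brakes 20, were found once in both tables. Results were recomputed without the table term, with pseudocounts of 0.1 or 10, under a stricter filter (mean FPKM 5) or none, after quantile normalization or median-ratio scaling, without the trend, and with each library left out.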

Additional observations from a re-analysis of the deposited data

How the results depend on the processing

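Without the replicate block (the table term), limma called 4 members in both knockout groups against WT in place of 14, 2 in SNAI1_KO_1 in place of 13, 3 in SNAI1_KO_2 in place of 13, and 8 genes of the related lists in place of 40. FGF4, FGF17, FGF19 and FGFR2 stayed called. Without the block 7.66% of all genes were called in both groups, 4.14% in SNAI1_KO_1 and 5.02% in SNAI1_KO_2. The main fit called 31.3%, 23.9% and 25.5%. With no filter on low values, 7.07%, 3.33% and 4.02% of all genes were called. The counts of members and of list genes were then 9, 5, 8 and 18 in the same order. Leaving out each library in turn gave 9 to 13, 5 to 9, 6 to 14 and 17 to 29, and 0 between the knockout groups throughout. In both knockout groups against WT, fewer of all genes were also called in each of these fits than in the main one. The cause of these shifts was not tested, except that fewer libraries entered the fits with 1 left out. The other settings left every count within 1.5 times its main value. Among the members, DUSP6, ETV4 and FGFR1 lost the call in the fit without the trend.

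SPRY4 had a positive difference under quantile normalization (0.015) and median-ratio scaling (0.041). Leaving out single libraries moved SPRY4 between -0.084 and 0.073, FGFR3 between -0.068 and 0.17, ETV5 between -0.070 and 0.18, and FGF12 between -0.33 and 0.0081, each across 0. None of these 4 genes passed in any fit. Over SNAI1 and 26 members, 313 of 373 values kept direction and side of the threshold, 44 lost the call, 5 gained it and 11 changed sign. Only SNAI1 and the members called in the main fit could lose the call, so the 44 losses fall on fewer than 373 values. FGF10 gained the call with a mean FPKM of at least 5 and under quantile normalization (adjusted p = 0.0451 and 0.0448). Over all genes 50.6% of calls were higher, against 59.1% with median-ratio scaling, 71.9% without the block, and 65.4% and 64.7% without the WT library of the first or second table.

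Each group had 2 libraries, the depth behind FPKM is unknown, and the 14 members under the filter were too low to test in the main model.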

Other observations

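FGF3, FGF4 and FGF19 lie next to each other on the long arm of chromosome 11, and the genes around them were examined after their values were seen. CCND1, on the FGF19 side, was 52.9, 66.1 and 68.2 in the first table, then 111, 135 and 171 in the second (log2 difference 0.40, adjusted p = 0.0147 by limma). ORAOV1, between CCND1 and FGF19, had a difference of 0.14 (adjusted p = 0.429). On the FGF3 side ANO1 was under the filter, and FADD and PPFIA1 had differences of 0.27 and 0.28 (adjusted p = 0.0293 and 0.0226). FGF3 was between 0 and 0.322 in all libraries. On the log2(FPKM + 1) scale the differences of FGF4 (2.32) and FGF19 (1.53) were larger than those of the tested genes on either side, and the difference between them was not tested.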
